A study of Homo sapiens with 8 samples.

Results

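Input RNA of MOLM-13 cells was compared between a hairpin against circMYBL2 and a control hairpin. The genes described are the protein-coding genes with a mean of at least 1 FPKM (fragments scaled to exon length and library size) over the 4 input RNA libraries, which were 9093 of the 19847 protein-coding genes in the table. The gene just inside this limit had a mean of 1.00023 FPKM and the gene just outside had 0.999935 FPKM. The limit uses the level of a gene and not the difference between the hairpins. A gene near it can still pass through 1 hairpin alone, which 217 of the 9093 did, with a mean under 1 FPKM for the other hairpin. Of the genes called below, 19 of those higher and 4 of those lower passed in this way, so they had to differ.

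MOLM-13 is an established acute myeloid leukaemia line of monocytic type that has the MLL-AF9 fusion gene, and 1 of its FLT3 alleles holds an internal tandem duplication. One group carried the control hairpin (sh-NC) and the other a hairpin that targets circMYBL2, the circular RNA formed from exons of MYBL2 (sh-circMYBL2 in the design text, Sh-cricMY1 in the sample titles). Each had 2 input RNA libraries and 2 ribosome footprint libraries, 8 in all. All are total RNA of 1 cell line depleted of ribosomal RNA. No drug or time is named in the labels, and no second hairpin is named in the sample titles. Separate cultures are not stated for the libraries of a group, so p-values measure no more than the spread between these libraries, and that may be technical. The circle was not matched to a row of the table, and no value of it is given.

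Monocytes enter tissue by following chemokines with receptors such as CCR2, and they present peptides from engulfed protein on MHC class II molecules. Genes of class II presentation are switched on together by the coactivator CIITA, which is itself induced by interferon-gamma through IRF1 in many cell types. Monocytic leukaemia cells keep part of this equipment, beside the HOXA and MEIS1 genes that MLL fusions hold on. The strand setting of the counting is not given in the sources used here, so reads of overlapping or antisense genes are not separated with certainty. Members of families with near-identical copies may share reads.

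Each input RNA library had 13507029 to 14605837 reads on genes, and the pair of libraries of either hairpin had r of 0.983 across genes. Mitochondrial DNA encodes 13 mRNAs, and their share of protein-coding reads was 7.49% and 7.30% for sh-NC but 4.62% and 4.39% for sh-circMYBL2. Of 324 tested genes of a cell cycle list, 165 were called higher and 5 lower, and of 63 genes of an integrated stress response list 1 was called higher and 35 lower. What these 3 shifts contribute to the other genes was not tested. Of 22 markers of monocytic leukaemia cells, 21 were in the table, 16 were tested and 1 was at 0 in every library, with PTPRC at 33.9 to 37.8 FPKM, SPI1 at 41.6 to 46.4 FPKM and LYZ at 557 to 754 FPKM. Erythroid markers summed to 0.0993 to 0.231 FPKM, with 10 of 20 at 0. Megakaryocyte markers summed to 0.241 to 0.721 FPKM (5 of 13 at 0), markers of fibroblasts and adherent lines to 1.21 to 1.97 FPKM (3 of 20 at 0) and lymphoid markers to 1.78 to 3.31 FPKM (6 of the 23 in the table at 0).

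A gene was called when its adjusted p was under 0.05 in limma, a moderated linear model fitted to log2(FPKM + 1) of 12489 genes of every biotype. Of the 9093 protein-coding genes, 545 were called higher with sh-circMYBL2 (5.99%) and 370 lower (4.07%). Most changes were small. The median log2 change was 0.46 among the genes called higher and -0.40 among those called lower, against 0.01 over all. A change of at least 2-fold on the FPKM scale was reached by 113 genes called higher and 44 called lower, which are 1.24% and 0.484% of the 9093 tested. The 5 lists of genes set aside were those of the cell cycle, the integrated stress response, the unfolded protein response, p53 targets and mitochondrial DNA. They held 453 tested genes with 166 called higher and 64 lower. The other 8640 genes held 379 higher and 306 lower, of which 31 and 28 reached 2-fold. Of the 51 lists described below, 18 share tested members with the lists set aside. Counts are over all tested members, and the counts without the shared members are given for the 8 lists in which they change the number of calls. The shares of all 9093 genes to set beside every list are 5.99% called higher and 4.07% called lower.

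A limit holds for every call named below. No gene was called with sh-NC library 1, sh-NC library 2, sh-circMYBL2 library 1 or sh-circMYBL2 library 2 left out, when the lowest adjusted p in limma was 0.0805, 0.0800, 0.0778 and 0.0821 and 1953, 2007, 1905 and 1838 genes had an unadjusted p under 0.05. All 545 and all 370 kept their direction without any of the 4. The same libraries gave the calls, so a reversal was unlikely from the start. Without the limit of 1 FPKM 52 were called higher and 36 lower, and limma without a trend of variance on mean called 243 and 142. Voom, a count-based weighting of read numbers recovered from the FPKM values, called 1577 higher (17.3%) and 1311 lower (14.4%).

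**Figure D1:**
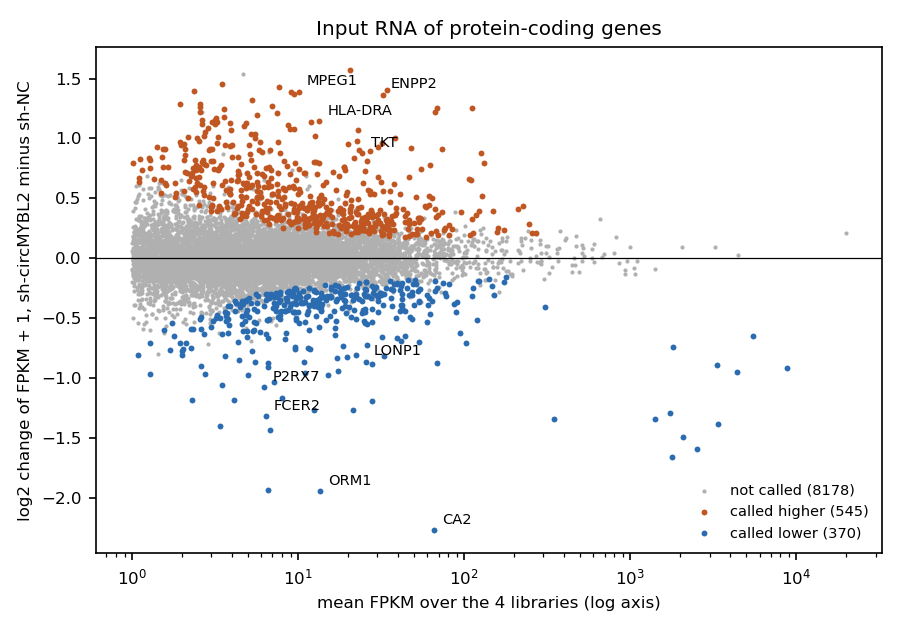
Mean FPKM over the 4 libraries (log axis) against the change in log2(FPKM + 1), sh-circMYBL2 minus sh-NC, for the 9093 protein-coding genes. Orange points are the 545 genes called higher, blue points the 370 called lower and grey points the rest. CA2 is the lowest point, and the blue points above 1000 FPKM are mitochondrial mRNAs.

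Outside the lists set aside, the 20 largest rises among genes with a mean of at least 5 FPKM ran from 1.39 on the log2 scale in MPEG1 to 0.69 in NCALD. The 5 largest were in MPEG1, MS4A6A, ENPP2, HLA-DRA and NPRL2. MPEG1, the pore-forming protein of macrophages on chromosome 11 (59208510 to 59212927, GRCh38.p14), had 5.06 and 5.18 FPKM with sh-NC and 15.2 and 14.9 FPKM with sh-circMYBL2, from 299, 331, 939 and 958 reads. HLA-DRA, the class II alpha chain of chromosome 6 (32439887 to 32445046), had 8.16 and 7.71 FPKM against 20.4 and 17.2 FPKM. FGL2, a fibrinogen-like protein made by macrophages and T cells on chromosome 7 (77193369 to 77199819), had 32.9 FPKM in both sh-NC libraries and 63.8 and 62.6 FPKM in the others, a rise of 0.92 (SE 0.03, limma adjusted p = 0.0072). Both sh-circMYBL2 libraries lay above both sh-NC libraries in all 3 genes, because the choice of genes asked for no overlap. Over all 9093 genes, 3133 were higher and 2848 lower without overlap.

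The other large rises covered several functions. NPRL2, a subunit of the GATOR1 complex that restrains mTORC1 when amino acids are scarce, went from 3.07 ± 0.0374 to 7.37 ± 0.253 FPKM (means ± SD of 2 libraries each, as throughout), a log2 change of 1.04. ENPP2 encodes autotaxin, the enzyme that makes the lipid mediator lysophosphatidic acid, and had 17.4 and 17.8 FPKM against 47.9 and 46.1 FPKM. Of the receptors for that lipid, 4 were listed and tested and none was called: LPAR6 was at 1.62 ± 0.0314 and 2.52 ± 0.115 FPKM (limma adjusted p = 0.0601), and LPAR1, LPAR2 and LPAR4 differed by 0.19, 0.25 and -0.33. GNPTAB, which tags enzymes for transport to the lysosome, went from 7.36 ± 0.222 to 12.98 ± 0.216 FPKM. PRKAR2B, a regulatory subunit of protein kinase A, and LMO4, a LIM-domain transcription cofactor, rose by 0.77 and 0.70. NASP, a histone chaperone, and KNTC1, a kinetochore protein, were not on the cell cycle list but act in dividing cells, and rose by 0.76 and 0.75.

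The 20 largest falls ran from -2.27 in CA2 to -0.71 in TCEA1. CA2, a carbonic anhydrase that speeds the exchange of carbon dioxide and bicarbonate, had 109 and 110 FPKM with sh-NC and 22.2 and 21.5 FPKM with sh-circMYBL2, from 3069, 3351, 653 and 662 reads. P2RX7, the ATP-gated channel that acts upstream of the NLRP3 inflammasome, had 9.39 and 8.27 FPKM against 3.78 and 3.55 FPKM (-1.07, SE 0.08, limma adjusted p = 0.0117). INHBA, which encodes the beta A chain of activin, had 9.91 and 10.1 FPKM against 4.65 and 4.11 FPKM. In each of the 3 genes the sh-circMYBL2 libraries were the lower pair, without overlap, which the choice of genes again required.

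FYN, a Src family kinase, went from 6.96 ± 0.304 to 3.05 ± 0.178 FPKM, and PAG1, the membrane adaptor that brings the inhibitory kinase CSK to Src family kinases, from 28.6 ± 0.0601 to 15.9 ± 0.101 FPKM. PVR, the ligand CD155 that natural killer and T cells recognise, went from 22.4 ± 0.222 to 12.1 ± 0.0602 FPKM. LONP1, a protease of the mitochondrial matrix, had 32.2 and 34.2 FPKM with sh-NC and 17.9 and 17.7 FPKM with sh-circMYBL2. CTSL, a lysosomal cysteine protease, had 13.8 and 14.8 FPKM against 7.40 and 7.42 FPKM. SLC22A15, a transporter of the organic ion family, fell from 20.3 ± 0.215 to 9.87 ± 0.173 FPKM, and TCEA1, which helps stalled RNA polymerase II to resume, from 127 ± 0.137 to 77.6 ± 1.69 FPKM.

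**Figure D2:**
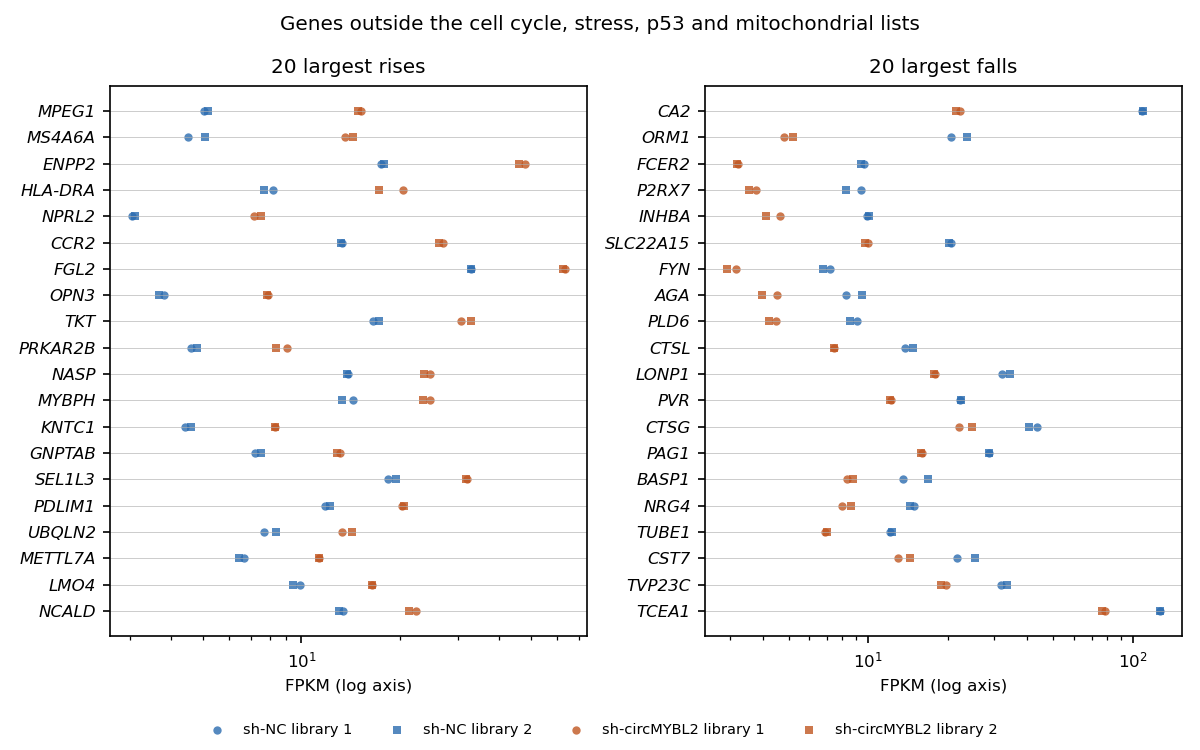
FPKM (log axis) in each of the 4 input RNA libraries for the 20 genes with the largest rise (left) and the 20 with the largest fall (right) outside the lists set aside. Circles are library 1 and squares library 2 of each hairpin, and the blue sh-NC and orange sh-circMYBL2 points do not overlap in any of the 40 genes because the choice of genes asked for this.

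Receptors for chemokines and lipid mediators held several calls in 1 direction. Of 29 tested, 8 were called higher and 1 lower, beside 5.99% and 4.07% of all protein-coding genes, and the median log2 change was 0.19 against 0.01. By voom 15 were called higher and 4 lower. CCR2, the receptor for the monocyte attractant CCL2 on chromosome 3 (46354111 to 46360940), had 13.3 and 13.2 FPKM with sh-NC and 26.9 and 26.2 FPKM with sh-circMYBL2, a rise of 0.95 (SE 0.04, limma adjusted p = 0.0072). CCR1, another receptor for inflammatory chemokines, was named after its values were seen and had 10.1 and 9.44 FPKM against 14.3 and 13.5 FPKM. In both genes the sh-circMYBL2 libraries lay above the sh-NC libraries without overlap, which the rule that chose CCR2 required.

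The other receptors that rose act on other ligands. P2RY8 had 15.9 and 16.1 FPKM with sh-NC against 22.0 and 22.8 FPKM, and GPR183, the receptor for oxysterols that position immune cells, had 11.8 and 11.4 FPKM against 16.7 and 16.04 FPKM. CXCR4, the receptor for CXCL12 that holds leukaemic cells in marrow, had 17.6 FPKM in both sh-NC libraries and 21.7 and 21.6 FPKM in the others (0.29, SE 0.03, limma adjusted p = 0.0257). CX3CR1, the fractalkine receptor, and CYSLTR1, a leukotriene receptor, were named after their values were seen and rose by 0.63 and 0.36. P2RX7 was the member called lower. The other P2X channels tested, P2RX1 and P2RX4, differed by -0.35 and -0.44 with limma adjusted p of 0.0569 and 0.0584, and were at 4.79, 4.53, 3.36 and 3.56 FPKM and 3.40, 3.86, 2.37 and 2.47 FPKM in the order sh-NC 1, 2 and sh-circMYBL2 1, 2.

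Of 10 tested genes of MHC class II presentation, 4 were called higher and none lower (median 0.36). With CIITA counted, that is 40% and 0%, beside 5.99% and 4.07% of all protein-coding genes. CD74, the invariant chain that guides class II molecules to endosomes, had 18.6 and 19.9 FPKM with sh-NC and 28.9 and 31.5 FPKM with sh-circMYBL2. CTSS, the protease that trims the invariant chain, had 26.9 and 26.8 FPKM against 34.5 and 32.9 FPKM. CIITA, the coactivator of these genes, was at a low level and was named after its values were seen: 0.581 and 0.470 FPKM against 1.68 and 1.73 FPKM, from 112, 98, 339 and 364 reads. It passed the limit of 1 FPKM only through the sh-circMYBL2 libraries, so its difference is given as a description and leaves 3 called of the other 9. The DNA-binding partners of CIITA differed little, with RFX5 at -0.10, RFXAP at 0.02 and RFXANK at -0.15 and none called. HLA-DRB1 and HLA-DMA were at 0.551 and 0.905 against 1.47 and 1.29 FPKM, and at 1.42 and 1.43 against 1.76 and 2.74 FPKM, without overlap but not called (limma adjusted p = 0.147 and 0.219). HLA-DRB1 was under 1 FPKM in both sh-NC libraries, so it too passed the limit only through sh-circMYBL2, and its difference is a description. The median of the list includes HLA-DRB1 and CIITA. HLA genes vary between alleles and resemble each other, so their reads may be lost or shared.

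**Figure D3:**
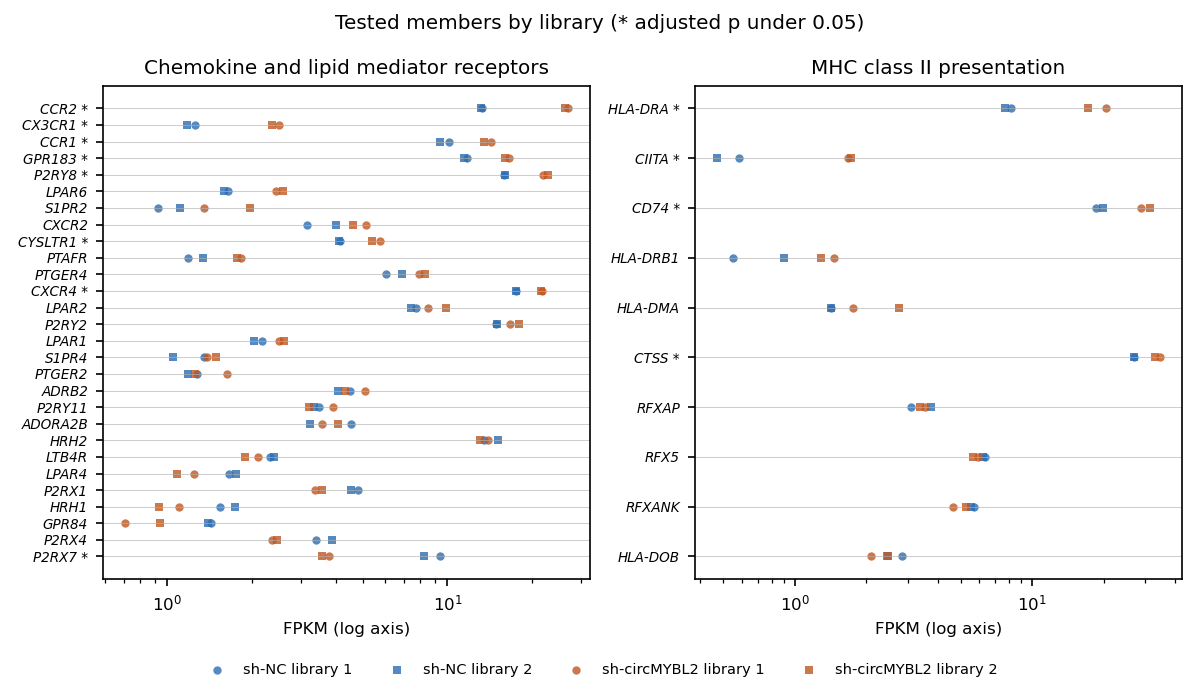
FPKM (log axis) by library for 28 of the 29 tested receptors for chemokines and lipid mediators (left) and the 10 tested genes of MHC class II presentation (right), ordered by log2 change. Stars mark the called genes, 8 of those shown on the left and 4 on the right, and P2RX7 at the bottom left is the only starred gene with lower values in sh-circMYBL2 (orange) than in sh-NC (blue).

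Class I presentation and interferon-stimulated genes showed smaller changes. Of 19 class I genes, 4 were called higher and 2 lower (median 0.15). Those that rose handle peptides: the trimming enzyme ERAP2 (6.39 ± 0.0159 to 8.99 ± 0.244 FPKM), the immunoproteasome subunit PSMB8, the proteasome activator PSME2 and the loading factor TAPBP, by 0.32 to 0.43. HLA-B, at 243 and 236 against 266 and 268 FPKM, and the light chain B2M, at 66.5 and 65.1 against 71.7 and 73.8 FPKM, were not called. PDIA3, 1 of the 2 class I genes called lower, is also on the list of the unfolded protein response. Without the members shared with lists set aside, 4 were higher and 1 lower of 17.

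Of 24 interferon-stimulated genes, 6 were called higher and 1 lower (25% and 4.17%, beside 5.99% and 4.07% of all genes, median 0.14). SAMHD1, which degrades the nucleotides that viruses need, went from 41.0 ± 1.12 to 50.8 ± 0.423 FPKM, and PARP14 and TRIM22 rose by 0.33 and 0.26. The RNA sensors IFIH1 and DDX58 and the transcription factor IRF1, named after their values were seen, rose by 0.41, 0.43 and 0.43. CGAS, the sensor of cytosolic DNA on the list of pattern recognition, went from 9.73 ± 0.05 to 13.5 ± 0.394 FPKM. XAF1, an interferon-induced partner of the caspase inhibitor XIAP, went the other way, from 16.2 and 16.1 FPKM to 10.4 and 10.6 FPKM (-0.58, SE 0.04, limma adjusted p = 0.0117).

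Promoters of the called genes were searched for short motifs, to show what they share beside the change in RNA. RefSeq windows of 300 bases, from 250 before to 50 after the start of a gene (GRCh38.p14), were matched to 7520 of the 9093 genes, 443 of them called higher and 279 called lower. The interferon element searched was GAAANNGAA on either strand, and it lay in 11.7% of windows of genes called higher, 8.24% of those called lower and 7.18% of all. Outside the lists set aside the shares were 11.6%, 7.88% and 6.95%. Of the 540 promoters with the element, 5 also held a match to a STAT motif, TTCNNNGAA, that overlapped it. The 3 promoters of called genes shown here, chosen after their values were seen, give the 250 bases before the start with the match in capitals, which for CCR2 and CD74 reads as the reverse complement. The match began 230 bases before the start in FGL2 (chr7:77199820-77200069, minus strand), 56 before it in CCR2 (chr3:46353861-46354110, plus strand) and 172 before it in CD74 (chr5:150412911-150413160, minus strand).
FGL2: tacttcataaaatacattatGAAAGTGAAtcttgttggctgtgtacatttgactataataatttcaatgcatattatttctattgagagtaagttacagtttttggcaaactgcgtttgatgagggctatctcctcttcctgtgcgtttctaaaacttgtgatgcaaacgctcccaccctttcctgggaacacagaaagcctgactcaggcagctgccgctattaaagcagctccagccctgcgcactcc
CCR2: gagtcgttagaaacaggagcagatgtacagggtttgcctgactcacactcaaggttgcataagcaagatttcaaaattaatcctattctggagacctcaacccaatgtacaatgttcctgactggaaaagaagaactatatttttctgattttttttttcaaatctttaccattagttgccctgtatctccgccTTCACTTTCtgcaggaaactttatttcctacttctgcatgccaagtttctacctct
CD74: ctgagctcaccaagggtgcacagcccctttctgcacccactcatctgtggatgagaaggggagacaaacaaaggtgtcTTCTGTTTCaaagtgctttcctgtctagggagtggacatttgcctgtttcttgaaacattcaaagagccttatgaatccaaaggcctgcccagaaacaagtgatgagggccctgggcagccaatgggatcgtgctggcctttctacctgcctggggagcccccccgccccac
A match of these letters is a description of the window and not a mapped binding site.

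The other motifs differed in how far their shares lay from those of all windows. The E2F motif, TTTCGCGC or TTTGGCGC, lay in 9.48% of windows of genes called higher, 1.08% of those called lower and 2.43% of all. Without the lists set aside these became 3.86%, 0.415% and 2%. The ATF4 element, TGATGNAA, lay in 1.81%, 6.45% and 1.65%, and in 2.25%, 3.32% and 1.45% without those lists. CTSG, described below with the granule proteins, is a called gene with this element that is on none of those lists, and its promoter (chr14:24576251-24576500, minus strand) is shown with the match, which began 115 bases before the start, in capitals.
CTSG: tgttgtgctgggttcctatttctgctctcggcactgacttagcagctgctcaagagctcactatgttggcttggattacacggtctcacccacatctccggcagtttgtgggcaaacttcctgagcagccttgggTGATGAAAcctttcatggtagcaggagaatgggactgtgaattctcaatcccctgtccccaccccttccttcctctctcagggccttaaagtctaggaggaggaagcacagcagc
CCAAT lay in 44.5%, 41.6% and 38.1% of windows, and in 35.0%, 39.0% and 36.9% outside the lists set aside. TATAAA, the core of the TATA box, lay in 10.4%, 7.53% and 5.70%, and in 8.68%, 7.05% and 5.31% outside those lists. In the shorter window of 150 bases around the start, TATAAA lay in 7.45%, 5.02% and 2.77%. The interferon element lay in 5.87%, 3.94% and 3.35% of the shorter windows. Set against all windows, the share of TATAAA in genes called higher was thus raised more than that of the interferon element in both windows, but not in the window of 300 bases outside the lists set aside. The sterol element, TCACNCCAC, was in 0.226% of windows of genes called higher (1 gene), 2.15% of those called lower (6 genes) and 1.08% of all. The antioxidant element, TGACNNNGC, lay in 18.7%, 19% and 15.6%, and in 18.6%, 17.4% and 15.6% outside the lists set aside. The CRE, TGACGTCA, lay in 4.74%, 2.51% and 3.68%. Outside those lists the CRE shares were 1.61%, 2.9% and 3.52%, so genes called higher then had the lowest share and not the highest. The E-box CACGTG (9.26%, 10.8% and 10.7%), the STAT motif (5.87%, 7.89% and 6.62%), the PU.1 motif GAGGAAGT (2.93%, 2.51% and 2.77%) and the SP1 motif GGGCGG (65.9%, 68.8% and 70.6%) lay nearer to the share of all windows. The NF-kappaB motif, GGGACTTTC or GGGAATTTC, was in 5, 1 and 54 windows. Motif shares have no test.

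Surface receptors of monocytes and macrophages were called higher in 6 of 32 and lower in 1 (median 0.11). That is 18.8% and 3.12%, beside 5.99% and 4.07% of all genes. MS4A6A, a membrane protein of myeloid cells, had 4.52 and 5.10 FPKM with sh-NC against 13.5 and 14.4 FPKM with sh-circMYBL2. CD4, which monocytes also carry, went from 12.4 ± 0.487 to 16.98 ± 0.524 FPKM, and LILRB4, an inhibitory receptor of monocytic leukaemia, from 11.7 ± 0.0445 to 14.5 ± 0.209 FPKM. CD180, a relative of the Toll-like receptors, rose by 0.35. The costimulatory ligand CD86 rose by 0.31 and TLR2 fell by 0.33 on the log2 scale, both named after their values were seen. CD33 was at 15.4 and 15.1 against 13.9 and 13.7 FPKM (limma adjusted p = 0.108), and CSF1R at 2.61 and 2.16 against 2.99 and 3.09 FPKM (adjusted p = 0.181 in limma), neither called. In bulk RNA, fewer cells of a type and less RNA per cell cannot be told apart.

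Proteins of granules and lysosomes moved in both directions. Of 19 genes of granule proteins, 2 were called higher and 4 lower (median 0.02). CTSG, a serine protease of azurophil granules, had 43.7 and 40.6 FPKM against 22.1 and 24.8 FPKM, and CST7, an inhibitor of lysosomal cysteine proteases, had 21.7 and 25.3 FPKM against 13.01 and 14.4 FPKM. MPO, the myeloperoxidase of the same granules, was at 3.18 and 3.21 against 2.27 and 2.32 FPKM and was not called (limma adjusted p = 0.0619). ORM1, an acute-phase glycoprotein, had 20.6 and 23.6 FPKM against 4.80 and 5.20 FPKM. ORM2 is nearly identical to ORM1 and was called lower too, so the reads of the pair may be split; ORM2 passed the limit of 1 FPKM only through the sh-NC libraries. CST3, a secreted cystatin, and CFD, complement factor D, rose by 0.50 and 0.30. LYZ, the most abundant of the markers given above, was not called (0.33, adjusted p = 0.0554 in limma).

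Of 40 genes of lysosomal hydrolases and membrane proteins, 5 were called higher and 1 lower (median 0.06). CTSZ went from 52.5 ± 2.34 to 74.9 ± 1.74 FPKM and CTSB from 32.9 ± 0.347 to 38.9 ± 0.773 FPKM, while CTSL, another protease of the same family, was the member that fell. GUSB, the beta-glucuronidase, went from 12.4 ± 0.000707 to 16.3 ± 0.118 FPKM. The V-ATPase, the pump that acidifies lysosomes, had 1 of 16 subunits called in each direction, ATP6V1H at 0.27 and ATP6V1G1 at -0.30. Among 36 autophagy genes 1 was called in each direction, UVRAG at 0.36 and MAP1LC3B at -0.38. Calcium-binding S100 proteins, annexins and galectins had 1 of 16 higher and 3 lower (median -0.01). S100A4 went from 33.3 ± 3.80 to 48.7 ± 2.53 FPKM, S100A11 from 36.7 ± 0.838 to 27.7 ± 1.25 FPKM and LGALS1 from 11.6 ± 0.286 to 7.77 ± 0.613 FPKM.

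**Figure D4:**
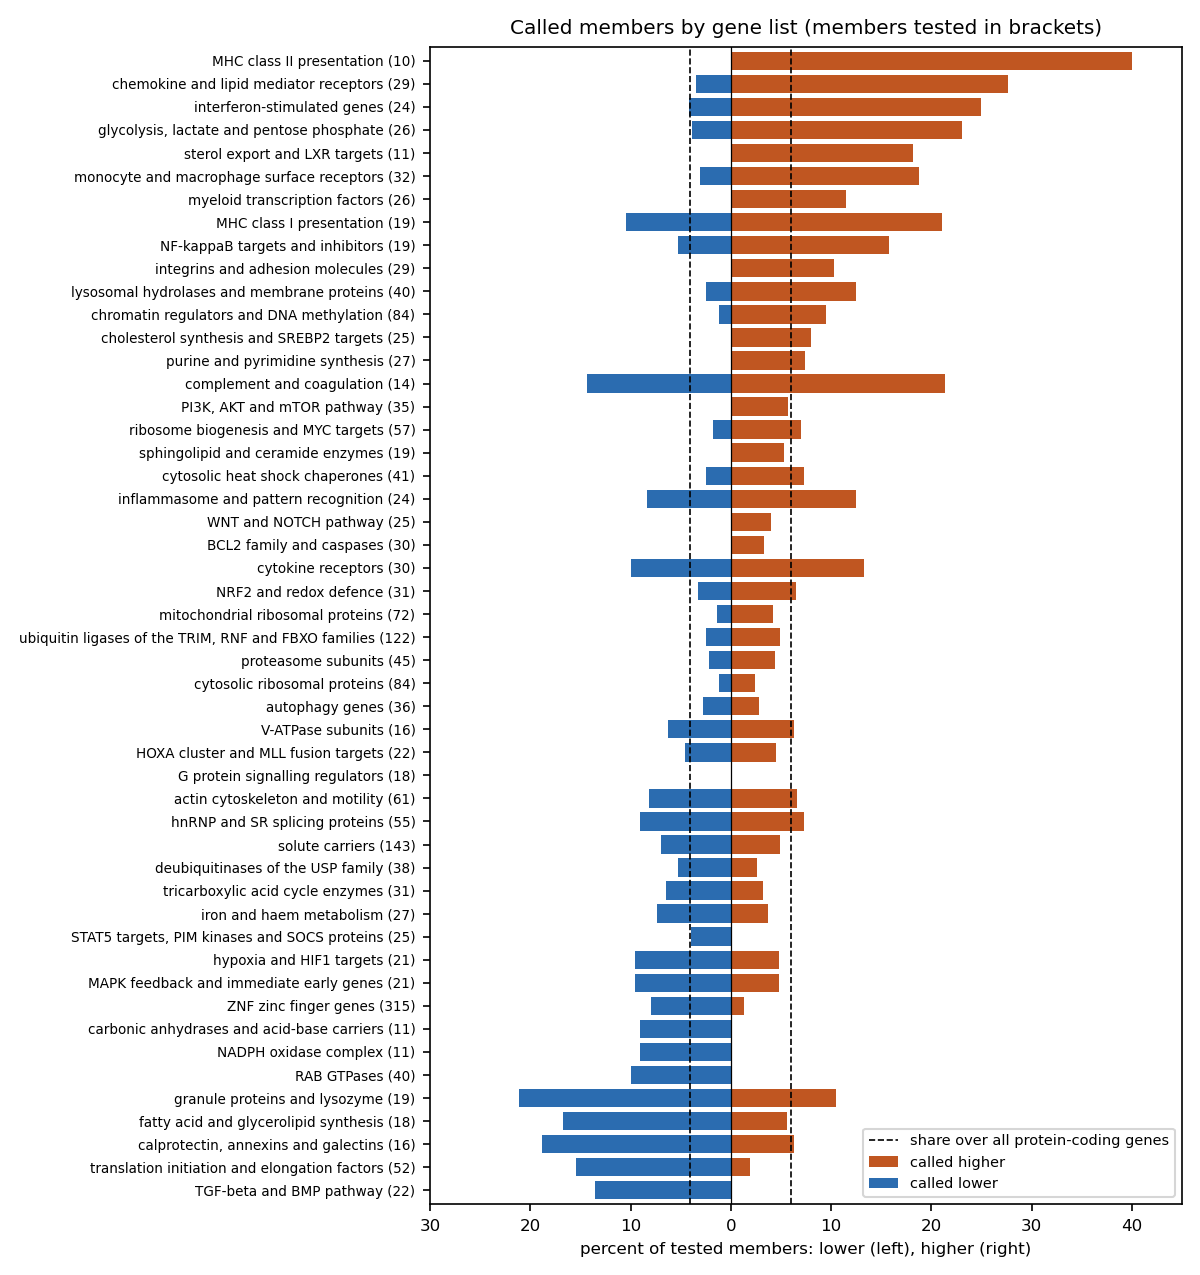
Percent of tested members called lower (blue, to the left) and higher (orange, to the right) in 50 of the 51 gene lists, with the number tested in brackets. Dashed lines mark 4.07% lower and 5.99% higher over all protein-coding genes. MHC class II presentation has the highest share called higher (4 of 10) and granule proteins the highest share called lower (4 of 19). These counts include CIITA and ORM2, which passed the limit of 1 FPKM only through the hairpin in which they were higher. The rank of granule proteins rests on ORM2, since calprotectin, annexins and galectins come next with 18.8% called lower.

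Of 26 transcription factors of the myeloid lineage, 3 were called higher and none lower (median 0.02): IRF8, a factor that directs monocytes and dendritic cells (19.6 ± 0.0865 to 25.6 ± 1.43 FPKM), IKZF1 (0.26) and CEBPA (0.20). SPI1, which encodes PU.1, was at 42.3 and 46.4 against 41.6 and 44.6 FPKM, and MYB at 122 and 124 against 121 and 117 FPKM, neither called. Of 22 genes of the HOXA cluster and targets of MLL fusions, ZFP36L2 was called higher (0.24) and PBX3 lower (-0.20). HOXA9 was at 15.2 and 13.7 against 16.5 and 16.2 FPKM and MEIS1 at 7.08 and 6.58 against 6.79 and 6.46 FPKM, with limma adjusted p of 0.160 and 0.723.

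Cytokine receptors were called in both directions, 4 higher and 3 lower of 30 (median 0.03), or 4 and 2 of 28 without the members shared with lists set aside. FLT3, the receptor tyrosine kinase of the series title, was in the former with 102 and 109 FPKM against 136 and 142 FPKM. IL7R and IL2RA, receptor chains best known from lymphocytes and named after their values were seen, rose from low levels. IL7R had 1.46 and 1.55 FPKM against 4.6 and 4.42 FPKM, and IL2RA had 0.781 and 0.919 FPKM against 3.72 and 4.03 FPKM, from 33, 42, 164 and 186 reads. IL2RA passed the limit of 1 FPKM only through the sh-circMYBL2 libraries, so its difference is a description. The lymphoid markers given above were summed at 1.78 to 3.31 FPKM and overlapped between the groups. IL13RA1 rose by 0.37, and IL3RA, the alpha chain of the interleukin 3 receptor, had 11.9 and 11.8 FPKM against 9.18 and 8.82 FPKM (-0.36, SE 0.04, limma adjusted p = 0.0270). Below these receptors, 25 targets of STAT5 with the PIM kinases and SOCS proteins held 1 call, in the cell cycle gene CCND2, and 0 of 23 without the members shared with lists set aside. MYBL2, the host gene of the circle, had 1.46 and 1.15 FPKM against 3.53 and 3.72 FPKM, which covers reads on all its exons and does not measure the circle.

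Among inhibitors and targets of NF-kappaB, 3 of 19 were called higher and 1 lower (median 0.04). NFKBIA, the inhibitor that NF-kappaB itself induces, went from 5.54 ± 0.631 to 8.46 ± 0.269 FPKM, SOD2, the manganese superoxide dismutase, from 5.48 ± 0.0602 to 7.99 ± 0.192 FPKM, and IER3 from 32.8 ± 0.205 to 26.3 ± 0.177 FPKM. Of 24 genes of inflammasomes and pattern recognition, 3 were higher and 2 lower (median 0.10). NLRP3 rose by 0.26 while CARD8, an inflammasome sensor, was at -0.23 and NLRP12, named after its values were seen, at -0.77. The sh-circMYBL2 mean of NLRP12 was under 1 FPKM (0.986), so it passed the limit through sh-NC. The NADPH oxidase had 1 call of 11, its catalytic subunit CYBB, from 14.6 ± 0.157 to 11 ± 0.291 FPKM. The median of that list was 0.17, opposite in sign to the called member.

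The TGF-beta and BMP pathway had 3 of 22 called lower and none higher (13.6% and 0%, beside 4.07% and 5.99% of all genes, median -0.06). They were the ligand chain INHBA, the receptor TGFBR1 (31.3 ± 0.213 to 26.1 ± 0.184 FPKM) and the feedback repressor SKIL (9.68 ± 0.0127 to 6.87 ± 0.0886 FPKM). RAB GTPases, the switches of vesicle traffic, had 4 of 40 called lower and none higher (10% and 0%, median -0.06). RAB7A of late endosomes had 72.6 and 71.2 FPKM against 56.2 and 55.6 FPKM, and RAB27A, which docks secretory granules, had 12.7 and 11.7 FPKM against 7.94 and 8.17 FPKM. RAB6A of the Golgi fell by 0.43 on the log2 scale and RAB37, named after its values were seen, fell by 0.60.

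Adhesion and movement genes held few calls. Of 29 integrins and adhesion molecules, 3 were higher and none lower (median 0.05), the alpha chains ITGA4, ITGAL and, named after its values were seen, ITGAM, which went from 2.84 ± 0.00410 to 5.04 ± 0.354 FPKM. Of 61 genes of the actin cytoskeleton, 4 were higher and 5 lower (median 0.02). GSN, which severs actin filaments, went from 6.45 ± 0.345 to 9.50 ± 0.348 FPKM and the myosin light chain MYL12B from 45.1 ± 0.216 to 37.4 ± 0.450 FPKM. Regulators of G protein signalling had 0 of 18 called by limma, with 5 at an unadjusted p under 0.05 and 4 higher and 2 lower by voom. In the complement and coagulation list 3 of 14 were higher and 2 lower. CD55, which protects cells from complement, went from 6.68 ± 0.325 to 4.68 ± 0.191 FPKM, and PLAUR, the urokinase receptor, fell by 0.28 on the log2 scale.

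In glucose metabolism, 6 of 26 genes were called higher and 1 lower (23.1% and 3.85%, beside 5.99% and 4.07% of all genes, median 0.12). The largest change among them was in the non-oxidative branch of the pentose phosphate pathway, which links glycolysis to ribose for nucleotides. TKT, the transketolase of that branch, had 16.5 and 17.2 FPKM with sh-NC and 30.7 and 32.9 FPKM with sh-circMYBL2 (0.88, SE 0.05, limma adjusted p = 0.0104). TALDO1, the transaldolase that works beside it, went from 24.6 ± 0.334 to 29.4 ± 0.821 FPKM, and was named after its values were seen. The lactate dehydrogenases LDHA and LDHB rose by 0.28 and 0.21. Of 27 genes of purine and pyrimidine synthesis, 2 were higher and none lower, IMPDH2 (33.0 ± 2.59 to 44.2 ± 0.0294 FPKM) and GMPS (11.01 ± 0.0886 to 14.3 ± 0.284 FPKM), which act in succession from inosine to guanosine monophosphate. LDHA, LDHB and IMPDH2 have close copies or pseudogenes, so their values are less certain.

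Of 31 genes of the tricarboxylic acid cycle list, 1 was called higher and 2 lower (median 0.02). IDH1 and IDH2, the cytosolic and mitochondrial forms of isocitrate dehydrogenase, went in opposite directions. IDH1 went from 38.1 ± 0.000860 to 33.2 ± 0.0622 FPKM, and IDH2, named after its values were seen, from 3.10 ± 0.571 to 5.62 ± 0.352 FPKM. GOT1, the cytosolic aspartate transaminase, also named then, went from 4.87 ± 0.124 to 2.36 ± 0.486 FPKM. Carbonic anhydrases and acid-base carriers held 1 call of 11, CA2. Hypoxia and HIF1 targets had 1 higher, BHLHE40 (9.31 ± 0.239 to 12.8 ± 0.343 FPKM), and 2 lower of 21, both of which are also on the lists set aside, leaving 1 higher and 0 lower of 18.

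Lists of lipid genes held few calls, and no difference between them was tested. Of 18 genes of fatty acid and glycerolipid synthesis, 1 was higher and 3 lower (median -0.05). MID1IP1, which activates acetyl-CoA carboxylase, went from 30.2 ± 0.918 to 20.5 ± 0.798 FPKM, ACSL1, which activates long-chain fatty acids, from 24.5 ± 0.298 to 17.2 ± 0.769 FPKM, and the desaturase SCD from 34.8 ± 0.309 to 27.9 ± 0.347 FPKM, while the elongase ELOVL5 rose by 0.33. Of 25 cholesterol synthesis genes and SREBP2 targets, 2 were higher and none lower (8%, near the 5.99% of all genes, with a median of 0.11 and 11 of 25 below 0), ACAT2 and TMEM97, both named after their values were seen. Sterol export and targets of LXR had 2 of 11 higher, SOAT1, which stores cholesterol as esters (5.37 ± 0.211 to 7.50 ± 0.139 FPKM), and MYLIP, which degrades the LDL receptor (0.23).

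Among 143 solute carriers, 7 were called higher and 10 lower, and 6 of the lower ones, amino acid carriers, are also on the stress response list set aside. In the remaining 135, 7 were higher and 4 lower. SLC44A1, a choline carrier, went from 49.3 ± 0.518 to 67.0 ± 2.17 FPKM and SLC5A3, a carrier of myo-inositol, from 7.92 ± 0.198 to 11.9 ± 0.397 FPKM. SLC7A2, a carrier of cationic amino acids, went from 9.29 ± 0.142 to 6.25 ± 0.166 FPKM and SLC25A37, which brings iron into mitochondria, from 28.9 ± 0.491 to 23.0 ± 0.558 FPKM. Of 31 genes of redox defence 2 were higher, SOD2 and PRDX2 (6.48 ± 0.225 to 10.1 ± 0.796 FPKM), and 1 lower, the ferritin heavy chain FTH1 (-0.16).

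Of 52 translation factors of initiation and elongation, 8 were called lower and 1 higher, beside 4.07% and 5.99% of all genes. The median of the list was 0.04, opposite in sign to most of the called members. EIF2S2, the beta subunit of the factor that carries the initiator tRNA, had 101 and 107 FPKM with sh-NC and 78.2 and 73.5 FPKM with sh-circMYBL2. EIF5, the GTPase activator of that factor, went from 34.0 ± 1.14 to 26.3 ± 0.000113 FPKM, and EIF1, which guards start codon choice and was named after its values were seen, from 47.0 ± 0.671 to 37.0 ± 2.59 FPKM. EEF1E1, a scaffold protein of the multi-synthetase complex, had 29.7 and 29.3 FPKM against 20.6 and 19.9 FPKM (-0.52, SE 0.04, limma adjusted p = 0.0117). EIF4B, a helper of the cap-binding helicase, went the other way, with 182 and 179 FPKM against 240 and 241 FPKM.

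Of 84 cytosolic ribosomal protein genes, 2 were higher and 1 lower, with a median of 0.00. RPL22L1, a paralog of RPL22, had 35.1 and 35.9 FPKM against 57.4 and 57.1 FPKM (0.67, SE 0.03, limma adjusted p = 0.00808). Ribosomal protein genes have many processed pseudogenes, so single values are uncertain. Of 72 mitochondrial ribosomal protein genes 3 were higher and 1 lower, and of 57 genes of ribosome biogenesis and MYC targets 4 were higher and 1 lower. Among 55 splicing proteins of the hnRNP and SR families 4 were higher and 5 lower (median -0.01). HNRNPF went from 46.5 ± 0.661 to 59.0 ± 1.56 FPKM and PTBP3 from 69.9 ± 0.444 to 83.4 ± 0.0603 FPKM, whereas TRA2A went from 29.5 ± 0.000736 to 23.5 ± 0.337 FPKM and RBM3, a protein induced by cold, from 124 ± 0.225 to 99.3 ± 1.04 FPKM.

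Protein folding and turnover showed scattered calls. Of 41 cytosolic chaperones, 3 were higher and 1 lower (median 0.08), among them HSP90AA1 and the chaperonin subunits CCT8 and CCT6A at 0.19 to 0.22. Proteasome subunits had 2 of 45 higher, PSMB8 and PSME2 of the immunoproteasome, and 1 lower, PSMD14. Of 122 ubiquitin ligases, 6 were higher and 3 lower, or 5 and 3 of 121 without the member shared with lists set aside. RNF213 went from 4.38 ± 0.0416 to 6.14 ± 0.108 FPKM and RNF145 from 13.2 ± 0.0284 to 9.52 ± 0.206 FPKM. USP22, the deubiquitinase of the SAGA coactivator, had 28.2 and 28.1 FPKM against 20.8 and 19.7 FPKM, and was 1 of 2 lower among 38 USP genes. The USP gene called higher is also on a list set aside.

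Genes of the ZNF zinc finger family had small changes that lay mostly below 0. Most encode DNA-binding repressors, many of which silence transposable elements, and a large part of them lie in clusters on chromosome 19. Of 315 tested, 25 were called lower and 4 higher (7.94% and 1.27%), against 3.93% and 6.16% of the 8778 other genes. The median was -0.07 and 207 of them (65.7%) lay below 0, against 48.0% of the others. By voom 83 were called lower and 22 higher. ZNF844, named after its values were seen, was 1 of the 4 called higher by limma, with means of 0.885 and 2.20 FPKM. It passed the limit of 1 FPKM only through the sh-circMYBL2 libraries, so it had to differ. The 135 on chromosome 19 had 16 lower and 2 higher (median -0.10, 70.4% below 0), the 180 on other chromosomes 9 and 2 (median -0.05, 62.2%), and the 519 other genes of chromosome 19 had 23 lower and 22 higher (median 0.02, 46.8%). No test of the difference between these groups was made, since neighbouring genes are not independent.

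ZNF274, which recruits a histone methyltransferase to other ZNF genes, had 6.84 and 6.46 FPKM with sh-NC and 4.01 and 4.05 FPKM with sh-circMYBL2 (-0.60, SE 0.06, limma adjusted p = 0.0182). ZNF37A had 13.6 and 12.8 FPKM against 9.16 and 8.49 FPKM. ZNF195, ZNF337 and ZNF460 fell by 0.45, 0.41 and 0.28 on the log2 scale. ZNF117 and ZNF367 were named after their values were seen. ZNF117 had 3.57 and 3.56 FPKM against 1.08 and 0.940 FPKM, from 507, 548, 160 and 146 reads, and ZNF367 rose from 1.28 FPKM in both sh-NC libraries to 4.39 and 3.55 FPKM. Members of this family resemble each other, so reads may be shared among them.

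**Figure D5:**
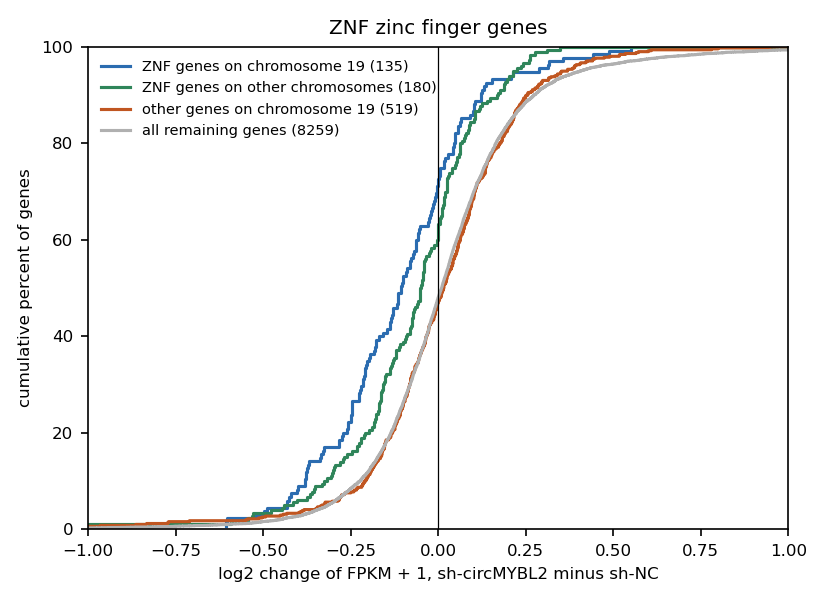
Cumulative percent of genes (vertical axis) at or below each change in log2(FPKM + 1), sh-circMYBL2 minus sh-NC (horizontal axis, shown from -1 to 1). The curves of the 135 ZNF genes on chromosome 19 (blue) and the 180 on other chromosomes (green) lie to the left of those of the 519 other genes of chromosome 19 (orange) and of all remaining genes (grey).

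Chromatin regulators had 8 of 84 called higher and 1 lower (median 0.02). Without the 3 that are also on the lists set aside, 6 of 81 were higher and 1 lower. DNMT1, which copies DNA methylation after replication, had 10.9 and 11.1 FPKM against 17.5 and 17.01 FPKM (0.61, SE 0.04, limma adjusted p = 0.0117). RBBP7, a histone-binding subunit of several complexes, went from 9.15 ± 0.0878 to 12.6 ± 0.353 FPKM, and AFF1, an elongation factor and partner of MLL in other fusions, from 26.1 ± 0.0804 to 31.7 ± 0.848 FPKM. The H3K27 demethylase KDM6B was the member called lower, at -0.38.

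The remaining lists held 0 to 2 calls in either direction. Of the PI3K, AKT and mTOR pathway, 2 of 35 were higher, the adaptor PIK3AP1 (23.3 ± 0.327 to 31.2 ± 1.29 FPKM) and RRAGD, a GTPase that signals amino acids to mTORC1 (4.50 ± 0.303 to 6.83 ± 0.215 FPKM). MAPK feedback and immediate early genes had FOS higher (0.30) and 2 of 21 lower, IER3 and FOSL1. Genes of iron and haem had NCOA4 higher and 2 of 27 lower, FTH1 and SLC25A37. The BCL2 family and caspases, the WNT and NOTCH pathway and the sphingolipid enzymes had 1 higher each, of 30, 25 and 19 tested, and none lower. The WNT and NOTCH gene, DTX4, passed the limit of 1 FPKM only through the sh-circMYBL2 libraries.

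Footprints are the mRNA pieces that ribosomes protect, and they give a second reading of the same genes from separate libraries. These libraries were shallow and uneven, with 80152 and 300373 reads for sh-NC and 222851 and 715081 for sh-circMYBL2, so only the order of the libraries was used. Protein-coding genes held 42.1% and 29.5% of these reads for sh-NC but 56.4% and 81.7% for sh-circMYBL2. The order does not correct for such a difference, and what it contributes to single genes was not tested. Whether the last digit in the sh-circMYBL2 column names is the hairpin or the replicate is not clear, so these columns are called a and b. Genes were taken with a mean of at least 5 RPKM and above 0 in all 4. Over all 3417 of them, both sh-circMYBL2 libraries lay above both sh-NC libraries in 24.6% and below both in 19.3%. Among the 342 genes with RNA called higher these were 29.2% and 14.3%, and among the 155 with RNA called lower 23.9% and 18.1%. Outside the lists set aside they were 28.5% and 15.4% of 228 genes with RNA called higher, 27.8% and 14.8% of 115 with RNA called lower, and 24.6% and 19.4% of all 3160. With at least 20 RPKM the shares were 25.2% and 17.8% of 163, 19.4% and 19.4% of 62, and 22.0% and 23.5% of all 1036.

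Of the genes named by rule, 75 called higher and 33 called lower had such footprints. Of the 75, footprints were higher without overlap in 18, lower in 11 and overlapping in 46. Of the 33, they were lower in 5, higher in 8 and overlapping in 20. Over all 3417 genes with such footprints, 24.6% were higher and 19.3% lower without overlap. No difference of the named genes from these shares was tested. The genes shown here were chosen after their values were seen. CCR2 had 26.1 and 14.4 RPKM with sh-NC (8 and 10 reads) and 39.3 and 32.2 RPKM with sh-circMYBL2 (38 and 134 reads), so the groups did not overlap and had the order of the RNA. FGL2 had 0 and 8.19 RPKM (0 and 7 reads) against 21.8 and 20.7 RPKM (26 and 106 reads), again without overlap. Its value of 0 leaves FGL2 outside the genes counted above. CA2, whose RNA was 5-fold lower, had 85.9 and 55.8 RPKM (15 and 22 reads) against 52.8 and 85.5 RPKM (29 and 202 reads), and the groups overlapped. ORM1 had no footprint read in any library. In other genes the footprints ran against the RNA without overlap. TKT, whose RNA rose, had 23.0 and 33.4 RPKM against 21.1 and 14.9 RPKM. DNMT1, which rose too, had 34.7 and 31.9 RPKM against 25.6 and 17.5 RPKM, and PDLIM1, a LIM-domain protein of the actin cytoskeleton among the 20 largest rises, had 48.9 and 50.5 RPKM against 25.9 and 22.9 RPKM. RAB7A, whose RNA fell, had 31.3 and 9.91 RPKM (7 and 5 reads) against 49.8 and 54.5 RPKM (35 and 165 reads).

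Length and chromosome were counted over all 9093 genes, with no test. Lengths are those recovered with the read numbers and may be too low for some genes. The median exon length was 4299 bases for genes called higher and 5017 for genes called lower, against 5107 for all tested, and outside the lists set aside it was 4511 and 5086 bases for the called genes. In 4 bins of equal size from the shortest to the longest genes, 7.39%, 7.22%, 5.06% and 4.31% were called higher and 4.35%, 4.05%, 3.92% and 3.96% lower. The highest shares called higher were on chromosome 6 (59 of 515, 11.5%, 24 of them outside the lists set aside), chromosome 8 (35 of 333, 10.5%, 25 outside) and chromosome 13 (17 of 171, 9.94%, 14 outside). The highest shares called lower were on chromosome 8 (23 of 333, 6.91%), chromosome 19 (39 of 654, 5.96%, 16 of them the ZNF genes given above) and chromosome 13 (10 of 171, 5.85%). Of 85 genes without a matched position 13 were called lower, 12 of them encoded by mitochondrial DNA.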

How the data were processed

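The submitters' processing notes name cutadapt, Bowtie, HISAT2, featureCounts and DESeq2 and build hg38; their versions and roles and the strand setting are not named there. The input RNA table deposited by the authors holds FPKM per gene and the footprint table deposited by the authors holds RPKM. A value times gene length was a whole multiple of a step in each library (tolerance 0.002 reads). This gave read numbers for all 29835 genes above 0. Like the lengths, these numbers may be too low for some genes. All value columns were used.

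Log2(FPKM + 1) of the 12489 genes with a mean of at least 1 FPKM was fitted with limma 3.58.1 in R 4.3.3 (linear models by lmFit and two-sided moderated tests from eBayes with a trend of variance on mean, Benjamini-Hochberg adjustment), 2 libraries against 2. Log2 changes and SE are on this scale, so those of low genes are understated. The smallest p that exact permutation allows here is 0.333. The recovery of reads and the fit were tested on simulated data. In the simulated recovery, read numbers were exact in every library for 90.3% of 1827 genes, and 99.9% of reads were recovered. In the simulated fit, 27.3% of genes set to differ 1.5-fold were called, as were 63.5% at 2-fold and 82.5% at 4-fold. There were 9 false calls, and a gene not called here may still differ. Counting error is contained in the spread between libraries, and no intervals were drawn from depth.

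The genes and the 51 lists described, and the 5 set aside, were chosen with earlier results of these data known, so lists have counts and medians and no test. Genes named were the 20 largest rises and 20 largest falls outside the lists set aside (called, mean of at least 5 FPKM, no overlap), up to 5 members of each list by smallest p under the same conditions, FLT3 and MYBL2. Other names are said to be chosen after their values were seen, or are given as values of members that were not called. Coordinates and promoters come from RefSeq tables of GRCh38.p14, matched by symbol. Alternatives were the pseudocount, the filter, the scaling, the test, the replicate block, leaving out each library, the footprint minimum and the promoter window. Some genes and 1 list are not reported here.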

Additional observations from a re-analysis of the deposited data

How the results depend on the processing

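The 545 and 370 calls kept their direction under every alternative in which the genes were tested (396 and 308 of them with a mean of at least 5 FPKM). The alternatives use the libraries that gave the calls, so this is largely fixed by the choice of genes. Counts of calls stayed within 1.5 times with pseudocounts of 0.1 and 5, a mean of at least 5 FPKM, quantile normalization, upper-quartile scaling and robust eBayes. They were 52 higher and 36 lower with no filter, which tested 15417 protein-coding genes, and 243 and 142 in limma without trend; the cause was not tested for the latter. Voom on recovered reads called 1577 and 1311, 544 and 368 of the calls among them. With any 1 of the 4 libraries left out, the counts were 0 to 0 in both directions; the fit then has fewer degrees of freedom and takes the lone library to vary like the other group. With the replicate number as a block (replicate block) limma called 0 and 0, with 2540 genes at an unadjusted p under 0.05 and a lowest adjusted p of 0.0502. Same-numbered libraries did not deviate together (r of 0.0265 across 12489 genes), so the numbers do not pair them. The motif shares moved with the window of 150 bases around the start, which is shorter.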
